A study of Mus musculus with 5 samples.

Results

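The epicardium is the mesothelial sheet that comes to cover the outside of the embryonic heart. It grows out from the proepicardium, a cluster of cells at the venous pole, and some of its cells later undergo an epithelial-to-mesenchymal transformation of their own and enter the heart wall. Its genes were followed here through 8 markers, *Wt1*, *Tcf21*, *Aldh1a2*, *Upk1b*, *Upk3b*, *Krt8*, *Krt18* and *Krt19*, which were chosen by name. These 8 are among 13486 genes that had a tag in any of the 5 Tag-seq libraries, and each of the 8 was listed in at least 1 library.

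*Wt1* and *Tcf21* code for transcription factors of the proepicardium and epicardium, a zinc finger protein and a basic helix-loop-helix protein respectively. *Aldh1a2* codes for retinaldehyde dehydrogenase 2, the enzyme that makes retinoic acid in epicardial cells. *Upk1b* and *Upk3b* code for uroplakins, membrane proteins first known from the urothelium and also made by mesothelium. *Krt8*, a type II keratin, and *Krt18* and *Krt19*, both type I keratins, build the intermediate filaments of simple epithelia, in which a type II keratin pairs with a type I keratin. None of the keratins is limited to the epicardium.

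The wild-type libraries came from the atrio-ventricular canal (AVC), the outflow tract (OFT), the atria and the ventricles of C57BL/6 hearts at E10.5 (Theiler stage 17). The 5th library came from the AVC of *Twist1* knockout embryos of the same stage on an ICR background, called the *Twist1* null AVC. Regions were separated by hand, tissue of at least 3 litters was pooled for a library, and each condition had 1 library. No spread between embryos was therefore measured, and in the comparison of the null with the wild-type AVC the strain and the genotype cannot be told apart. In a bulk library, fewer cells of a type and less RNA per cell cannot be told apart either.

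The libraries held between 4223810 tags in the ventricles and 12977237 in the *Twist1* null AVC. A tag type, meaning 1 distinct sequence, was listed only with more than 5 tags, which set the smallest level at 0.462 tags per 1000000 (TPM) in the null and at 0.988 to 1.42 TPM in the wild-type libraries. *Twist1* itself stood at 918 TPM in the wild-type AVC and at 4.55 TPM in the null, and at 299 TPM in the OFT, 63.4 TPM in atria and 55.9 TPM in ventricles. Which part of the gene the null allele lacks is not given in the sources used here. All 7 cardiomyocyte markers were listed in every library, and 6 markers of cushion mesenchyme summed to 2514 TPM in the AVC and 3196 TPM in the OFT, but to 183 and 171 TPM in atria and ventricles and to 426 TPM in the null. Haemoglobin made up 21.5% of atrial and 4.67% of ventricle tags, 2.73% of those of the null, and 0.307% and 0.242% of those of the OFT and the AVC.

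Each value rests on a few 21-base tags, the NlaIII site CATG and the 17 bases after it. The leading tag of each gene is shown here because it carried 85.8 to 98.1% of that gene's tags over the 5 libraries. Capitals mark the NlaIII site.

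*Wt1*: CATGtgtatgtgcctgctaat
*Tcf21*: CATGaatgactgcaagcctgg
*Aldh1a2*: CATGtgaacacacgattaacc
*Upk1b*: CATGccagctattcaaacaag
*Upk3b*: CATGtcccacggggcttgtct
*Krt8*: CATGagcattcatacgaagac
*Krt18*: CATGcaaactgtgcagaagac
*Krt19*: CATGgacatcaagtccaggct

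Places on GRCm38 are from a match to GENCODE M21 transcripts that are linked to RefSeq. The *Wt1* tag lay at chr2:105172743-105172763 on the plus strand, in the 3′ UTR in exon 10 of 10. The *Tcf21* tag lay at chr10:22817493-22817513 on the minus strand, in the 3′ UTR in exon 2 of 2. The *Aldh1a2* tag, at chr9:71296107-71296127 on the plus strand, was in the 3′ UTR in exon 14 of 14. For both uroplakins the tag again fell in the 3′ UTR, in exon 8 of 8 at chr16:38773303-38773323 on the minus strand for *Upk1b*, and in exon 6 of 6 at chr5:136045241-136045261 on the plus strand for *Upk3b*. The keratin tags were all in coding sequence. That of *Krt8* was in exon 8 of 9 at chr15:101997677-101997697 on the minus strand, that of *Krt18* in exon 7 of 7 at chr15:102031871-102031891 on the plus strand, and that of *Krt19* in exon 6 of 6 at chr11:100140998-100141018 on the minus strand. Of the 8 tags, 7 came from the NlaIII site nearest to the 3′ end of the transcript. The *Upk3b* tag came from the site numbered 6 from that end, and the tag of its last site is shared with *Aagab* and was not listed in any library.

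2 properties of these tags bear on the values below. The first is the base after CATG, which is T for *Wt1*, *Aldh1a2* and *Upk3b* and another base for the other 5 genes. Tags beginning with T made up 13.6% of the AVC, 15% of the OFT, 32.1% of the atria, 22.2% of the ventricles and 32.4% of the null library. Over 2041 genes with both kinds, the log2 ratio of null to AVC was a median 1.32 higher for T tags than for other tags of the same gene, and over 1027 genes the log2 ratio of AVC to chambers was 0.68 lower. The second is a match of the leading *Krt18* tag to the processed pseudogene *Gm5200*, which is outside the RefSeq-linked set, so a part of those tags from *Gm5200* was not tested.

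**Figure D1:**
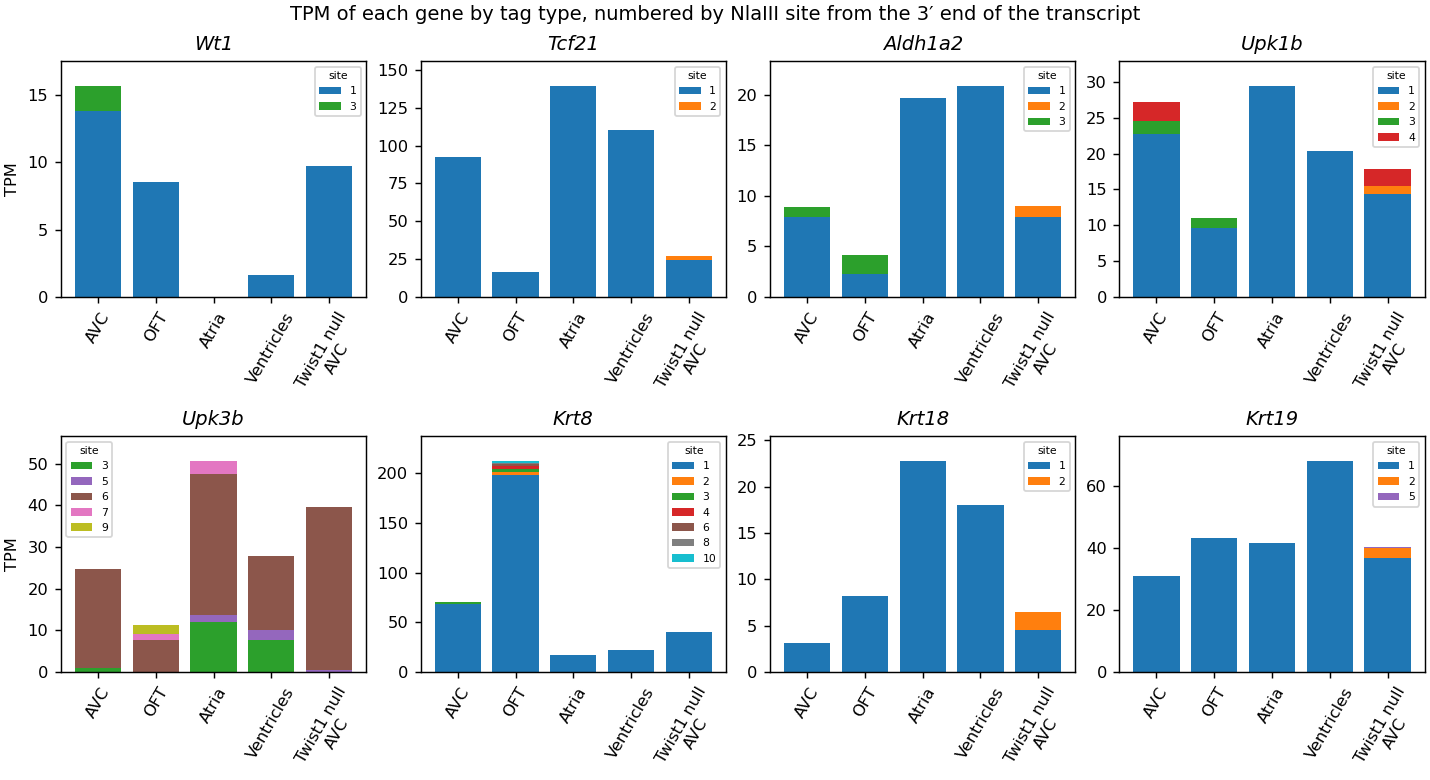
TPM of each gene in each library on a linear axis from 0, stacked by tag type and coloured by the number of its NlaIII site counted from the 3′ end. For *Tcf21*, *Krt18* and *Krt19* a single site made up the whole bar in the 4 wild-type libraries, whereas *Upk3b* was made up of several sites in which site 6 was the largest.

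The levels fell into different orders for different genes, and the libraries are given below as they were measured, with 95% counting intervals. The interval covers counting error only. *Wt1* was highest in the AVC. It had 95 tags in the AVC, or 15.6 TPM (12.7 to 19.1), and 45 tags in the OFT, or 8.54 TPM (6.23 to 11.4). The ventricles had 7 tags, or 1.66 TPM (0.666 to 3.41), and the null had 126 tags, or 9.71 TPM (8.09 to 11.6). No *Wt1* tag was listed in the atria, where the 2 tag types seen elsewhere could hide up to 10 tags, or 2.14 TPM. The AVC stood above the null and the OFT, whose intervals overlapped, and both chamber libraries lay below all 3. The ventricle level was within the atrial limit.

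*Tcf21* had the opposite placing of the chambers. It reached 139 TPM in the atria (128.6 to 150.2), 110.6 TPM in the ventricles (100.8 to 121.1) and 92.2 TPM in the AVC (84.7 to 100.1), from 649, 467 and 560 tags. The OFT had 16.5 TPM (13.2 to 20.4) from 87 tags, and the null had 27.3 TPM (24.5 to 30.3) from 354 tags. No interval overlapped that of its neighbour in this order, and the step from the AVC to the null was the widest.

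*Aldh1a2* was low throughout. The chambers were alike, with 20.8 TPM in the ventricles (16.7 to 25.7) and 19.7 TPM in the atria (15.9 to 24.2), and the AVC and the null were alike at 8.89 TPM (6.68 to 11.6) and 9.02 TPM (7.46 to 10.8). The OFT was lowest with 4.18 TPM (2.62 to 6.32) from 22 tags. Of those 22, 12 were the leading T tag and 10 were a tag in coding exon 11, CATGgtatcctccgcaatgca, at chr9:71285238-71285258. It is shown because it was the only *Aldh1a2* tag not beginning with T, and it was listed with 6 tags in the AVC and in no other library.

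The uroplakins were lowest in the OFT as well. *Upk1b* had 27.2 TPM in the AVC (23.2 to 31.6), 11 TPM in the OFT (8.36 to 14.2), 29.4 TPM in the atria (24.6 to 34.7), 20.4 TPM in the ventricles (16.3 to 25.1) and 17.9 TPM in the null (15.7 to 20.3). The OFT interval lay below the other 4, and those of the atria, the AVC and the ventricles overlapped. *Upk3b* had 24.9 TPM in the AVC (21 to 29.1), 11.2 TPM in the OFT (8.53 to 14.4), 50.6 TPM in the atria (44.3 to 57.5), 27.9 TPM in the ventricles (23.1 to 33.5) and 39.6 TPM in the null (36.3 to 43.2). The atria were highest and the OFT lowest, both without overlap, and the AVC and ventricle intervals overlapped. The tags of *Upk3b* did not keep 1 ratio between libraries. A tag at chr5:136045830-136045850, site 3 from the 3′ end, had 56 atrial and 33 ventricle tags, with 6 in the AVC and none listed in the OFT or the null, while the leading tag had 158, 75, 145, 40 and 507 tags in the atria, ventricles, AVC, OFT and null.

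*Krt8* had its highest level in the OFT. It had 212 TPM there (199.6 to 225) from 1116 tags, 70.1 TPM in the AVC (63.6 to 77.1) from 426 tags and 40.5 TPM in the null (37.1 to 44.1) from 526 tags. The ventricles had 22.5 TPM (18.2 to 27.5) and the atria 16.9 TPM (13.4 to 21.1), from 95 and 79 tags. The chamber intervals overlapped each other and lay below the rest. In the OFT, 6 further *Krt8* tag types from internal sites were listed with 6 to 17 tags each, 3 of which also match the pseudogene *Krt8-ps*.

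*Krt18* ran the other way. The atria had 22.7 TPM (18.6 to 27.5) from 106 tags and the ventricles 18 TPM (14.2 to 22.5) from 76 tags, while the OFT had 8.16 TPM (5.91 to 11) from 43 tags, the null 6.47 TPM (5.16 to 8.01) from 84 tags and the AVC 3.13 TPM (1.88 to 4.88) from 19 tags. Both chambers were above the other 3 libraries without overlap, and the OFT and null intervals overlapped. *Krt19* varied least of the keratins, with 30.9 TPM in the AVC (26.7 to 35.7), 43.3 TPM in the OFT (37.8 to 49.3), 41.8 TPM in the atria (36.1 to 48.1), 67.9 TPM in the ventricles (60.3 to 76.3) and 40.4 TPM in the null (37.0 to 44.0). The ventricles stood above and the AVC below, and the intervals of the OFT, the atria and the null overlapped.

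**Figure D2:**
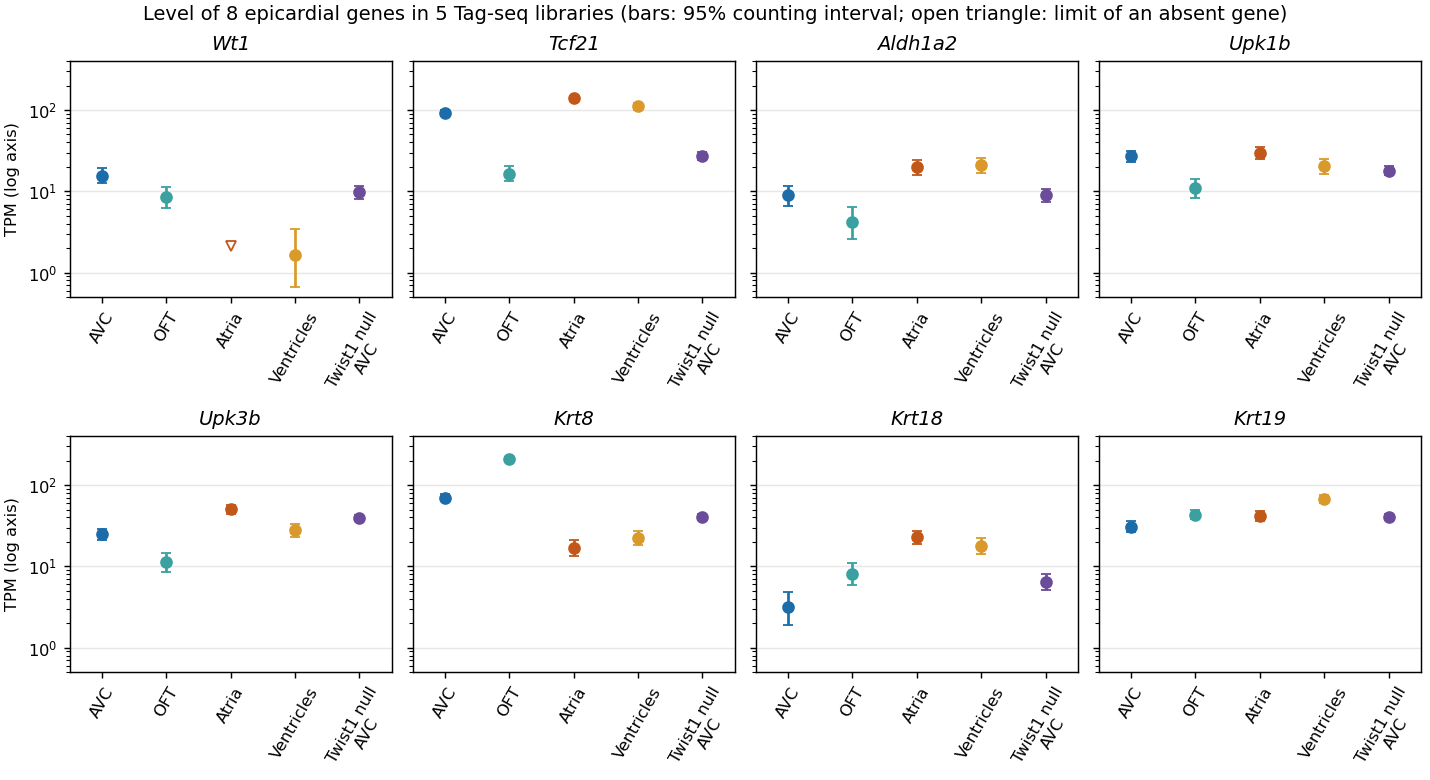
Level of each gene in TPM on a log axis in the AVC, OFT, atria, ventricles and *Twist1* null AVC, with bars for the 95% Poisson interval of the tag count, 1 library per condition. *Krt8* peaked at 212 TPM in the OFT and *Tcf21* at 139 TPM in the atria, and the open triangle is the 2.14 TPM limit for *Wt1* in the atria, where it was not listed.

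Because *Krt8* and *Krt18* belong to opposite keratin types, their tags were also set against each other within each library, where the library total plays no part. There were 22.4 *Krt8* tags for each *Krt18* tag in the AVC (14.2 to 37.6) and 26.0 in the OFT (19.1 to 36.1). The ratio was 0.745 in the atria (0.550 to 1.01), 1.25 in the ventricles (0.915 to 1.71) and 6.26 in the null (4.97 to 7.98). The valve regions overlapped each other, the null lay below them, and both chambers lay below the null with intervals that spanned 1. These are tag counts of 2 genes with different tags, so the ratio compares libraries and does not give the molar ratio of the keratins. Neither leading tag begins with T. Of the 84 *Krt18* tags in the null, the deepest library, 25 came from an internal site that no other library listed. The 526 *Krt8* tags of the null were all its leading tag, so without that *Krt18* site the null ratio would be higher.

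**Figure D3:**
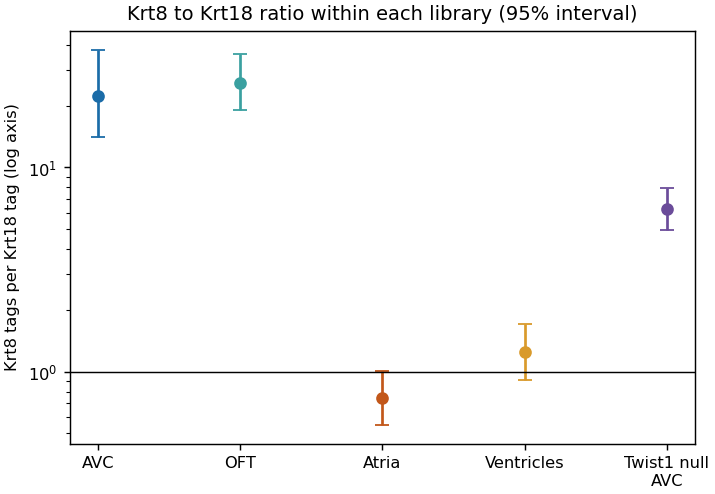
*Krt8* tags per *Krt18* tag within each library on a log axis, with 95% intervals from counting, and a line at 1. The AVC and the OFT lie at 22.4 and 26.0, the null at 6.26, and the atria and ventricles near 1.

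Summed over the 8 genes the libraries were closer together, at 273 TPM (AVC), 315 TPM (OFT), 320 TPM (atria), 290 TPM (ventricles) and 191 TPM (null). Without the 3 keratins the sums were 169, 51.4, 239, 181 and 103 TPM in the same order. The OFT then had the lowest sum, where with the keratins it was within the range of the other wild-type libraries.

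The valve regions were compared with the chambers to ask which of these genes differ between the tissue that forms cushions and the rest of the heart. The AVC and the OFT were each tested against the atria and ventricles added together, with edgeR's two-sided exact test at a fixed dispersion of 0.12, and a gene whose unadjusted exact p was under 0.05 is said to be called. The test compares libraries, since there was 1 per condition, and both comparisons share the chamber libraries. In both comparisons most genes leaned one way. The median log2 ratio over all genes tested was 1.23 with the AVC and 1.07 with the OFT. TMM normalization moved the log2 ratios by about -0.95 and -0.86, and by less for genes with no tag listed on a side. The share of higher genes among all calls was 84.2% and 82.1%, and 59.4% and 59.7% with TMM normalization.

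In the AVC, 2 of the 8 genes were called higher and 1 lower than in the chambers, where 43.4% of 12503 genes were called higher and 8.12% lower. *Wt1* was 19.9-fold higher (counting interval 9.27 to 50.7, log2 ratio 4.28, exact p = 4.31e-06). With 5 tags put in for each tag type missing from a library, its log2 ratio was 2.65 (exact p = 0.00156). *Krt8* was 3.58-fold higher (3.00 to 4.30, log2 ratio 1.84, exact p = 0.0142), but its log2 ratio was 0.89 with TMM normalization (exact p = 0.227). *Krt18* was 6.55-fold lower (4.07 to 11.1, log2 ratio -2.70, exact p = 0.00101). The median log2 ratio of the 8 genes was -0.56, against the 1.23 of all genes.

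The other 5 genes were not called in the AVC. Their log2 ratios were -0.45 for *Tcf21*, -1.19 for *Aldh1a2*, 0.11 for *Upk1b*, -0.68 for *Upk3b* and -0.81 for *Krt19*, all below the median of all genes. With TMM normalization *Aldh1a2*, *Upk3b* and *Krt19* were called lower, at -2.14, -1.63 and -1.76, which gave 1 gene higher and 4 lower. Over all genes TMM normalization gave 25.6% higher and 17.5% lower. *Upk1b* was on the other side of 0 at -0.84 and was not called.

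In the OFT, 2 of the 8 genes were called higher and 3 lower, where 40.6% of 12451 genes were called higher and 8.88% lower. *Krt8* was 10.8-fold higher (9.22 to 12.8, log2 ratio 3.44, exact p = 1.55e-05), and *Wt1* was also 10.8-fold higher, with a wider interval (4.86 to 28.5, log2 ratio 3.41, exact p = 0.000358). With 5 tags for each missing type the log2 ratios were 3.01 and 2.65. Among the lower genes *Tcf21* was 7.60-fold lower (6.11 to 9.57, log2 ratio -2.92, exact p = 0.000195). *Aldh1a2* was 4.85-fold lower (3.11 to 7.93, log2 ratio -2.27, exact p = 0.00515). *Upk3b* was 3.56-fold lower (2.69 to 4.77, log2 ratio -1.83, exact p = 0.0171), a call that was lost against the ventricles alone (exact p = 0.0896).

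For *Aldh1a2* the direction in both comparisons rested on T tags. Without tags beginning with T, only its exon 11 tag was left, with 6 tags in the AVC, 10 in the OFT and none listed in the chambers. For *Wt1* without T tags, only its A tag CATGaccaaactccagctggc was left, at chr2:105172317-105172337 in coding exon 10. This A tag had 11 tags in the AVC, and no chamber library listed it. The exact test gave p = 0.00386 for the AVC, but it took the A tag as absent from the chambers. Tag types with few tags are not listed, so this p does not decide whether the *Wt1* call holds without T tags. In the OFT, the ventricles and the null *Wt1* had the T tag alone. The genes not called in the OFT were *Krt18* at a log2 ratio of -1.32, *Upk1b* at -1.19 and *Krt19* at -0.32, and TMM normalization called *Krt18* and *Upk1b* lower at -2.18 and -2.04. The median of the 8 genes was -1.26.

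**Figure D4:**
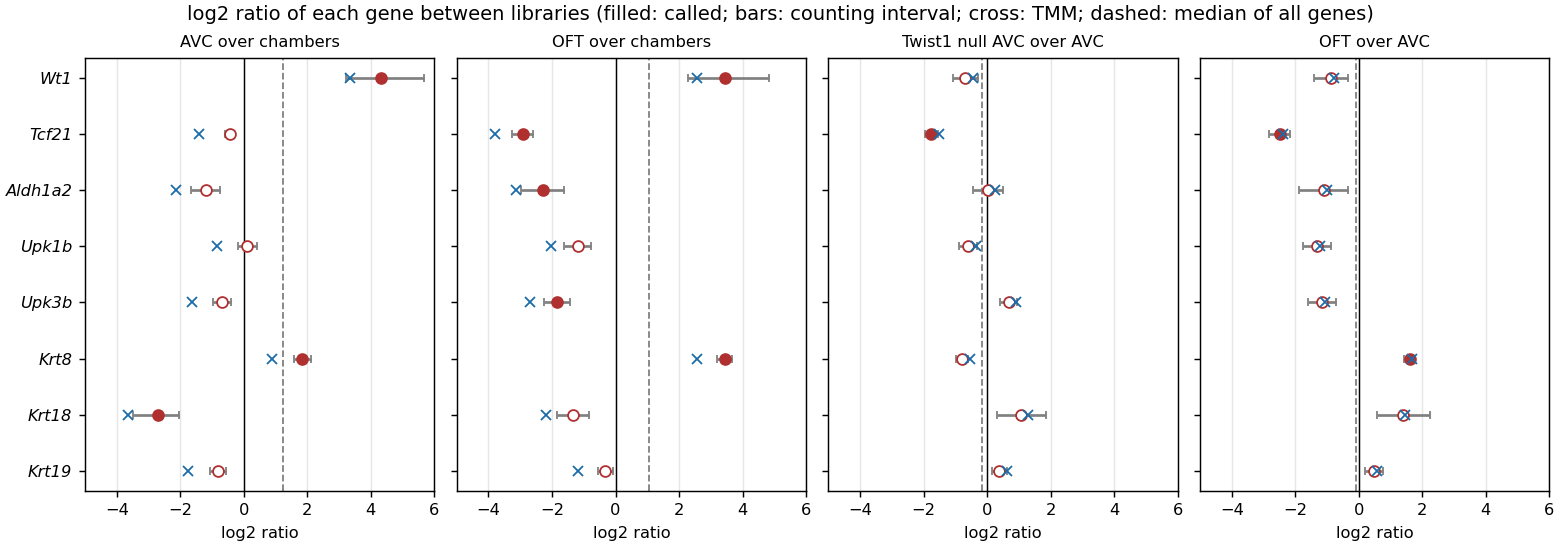
log2 ratio of each gene in 4 comparisons of libraries, with filled points for called genes, bars for the 95% counting interval, crosses for TMM normalization and a dashed line at the median of all genes. *Wt1* and *Krt8* lie right of the dashed line in both comparisons with the chambers, and *Tcf21* lies left of it in all 4 panels.

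The OFT was also set against the AVC, without the chamber libraries, to show where the valve regions differ. Of the 8 genes 1 was called higher and 1 lower, and 5.22% and 7.35% of 12541 genes were called. *Tcf21* was 5.58-fold lower in the OFT (4.45 to 7.08, log2 ratio -2.48, exact p = 0.00139). *Krt8* was 3.02-fold higher (2.70 to 3.39, log2 ratio 1.59, exact p = 0.0313), and this call was lost with Benjamini-Hochberg adjustment. The log2 ratios of the others ran from -1.30 for *Upk1b* to 1.38 for *Krt18* without a call. The median log2 ratio over all genes was -0.10, and here the T tags differed from the other tags of a gene by a median of 0.09 over 1274 genes.

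The *Twist1* null AVC was compared with the wild-type AVC to ask how these genes differ when *Twist1* is lost. Of the 8 genes none was called higher and 1 lower, where 11.9% of 12963 genes were called higher and 12.7% lower. The lower gene was *Tcf21*, 3.38-fold lower in the null (2.95 to 3.87, log2 ratio -1.76, exact p = 0.0187). It remained called with TMM normalization, at -1.52 (exact p = 0.0407), but not with Benjamini-Hochberg adjustment over all genes. TMM normalization moved the log2 ratios of this comparison by about 0.24, and by less for genes with no tag listed in a library. The share of higher genes among all calls was 48.3% before and 61.4% after it.

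For the rest the log2 ratios of null to AVC were -0.69 for *Wt1*, 0.02 for *Aldh1a2*, -0.60 for *Upk1b*, 0.67 for *Upk3b*, -0.79 for *Krt8*, 1.05 for *Krt18* and 0.38 for *Krt19*, with exact p from 0.203 to 1. Over all genes the log2 ratios of this comparison differed with the first base of the tag. Leading tags of *Wt1*, *Aldh1a2* and *Upk3b* begin with T, and the median log2 ratio of T tags in this comparison was 0.91 against -0.61 for A tags, -0.37 for C tags and -0.61 for G tags. Without T tags *Upk3b* went from 0.67 to -0.86 and was not called. For *Wt1* and *Aldh1a2* only a low tag was then left, with 11 and 6 tags in the AVC and none listed in the null, and both were called lower in the null (exact p = 0.00202 and 0.0254). As 5 or fewer tags are not listed, no fold is given for them. No listed *Tcf21* tag begins with T, so leaving out T tags alone could not move the *Tcf21* ratio of -1.76. With T tags left out and TMM normalization together it was -1.17 (exact p = 0.113).

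Markers of blood, 7 erythroid genes, summed to 2422 TPM in the AVC and 27374 TPM in the null, and the 6 cushion mesenchyme genes to 2514 and 426 TPM. These moved with the comparison, and their part in the *Tcf21* difference was not tested.

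Between the chambers 1 of the 8 genes was called in the ventricles over the atria and none lower, where 11.1% of 10705 genes were called higher and 9.03% lower. The call was *Wt1*, with 7 tags against none listed (exact p = 0.0391), both within the limit, and with 5 tags for each missing tag type it was no longer called (exact p = 0.829). For the other 7 genes the log2 ratio of ventricles to atria ran from -0.86 for *Upk3b* to 0.70 for *Krt19*, with exact p from 0.251 to 0.949. The T tags differed from other tags of the same gene by a median log2 of 0.25 over 493 genes.

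Other genes of the same tissue layer gave a mixed picture. Of 20 further mesothelial genes 17 were listed in some library. Against the chambers, where the shares over all genes are those given above, 5 of 16 tested were called higher in the AVC (*Alcam*, *Clu*, *Itga4*, *Lrp2* and *Msln*) and 3 lower (*Bnc1*, *Cldn15* and *Lrrn4*), and 3 of 14 were called higher in the OFT and 5 lower. The median log2 ratios were 0.54 and -0.80, both below those of all genes. With TMM normalization the AVC had 1 higher and 6 lower, and the OFT 3 higher and 7 lower. Over all genes it gave 25.6% higher and 17.5% lower with the AVC, and 26.2% and 17.7% with the OFT. *Lrp2* and *Msln* had 0.988 TPM in the AVC and no tag listed in the chambers. An equal level could not have been listed there, as the smallest was 1.29 TPM in atria and 1.42 TPM in ventricles. Both calls were lost with TMM normalization (exact p = 0.101). Of the lower genes, *Bnc1* and *Cldn15* had no tag listed in the AVC, and *Cldn15* and *Dmkn* none in the OFT.

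The 4 most abundant of that list had distinct orders. *Tbx18*, a T-box factor of the proepicardium and epicardium, had 100.9 TPM in the AVC and 38.3 TPM in the OFT, with 70.5 TPM in atria, 80.5 TPM in ventricles and 72.6 TPM in the null, and was not called in any comparison, although TMM normalization called it lower in the OFT over the chambers (exact p = 0.0147). *Itga4*, the alpha 4 integrin, had 142 TPM in the AVC and 43.5 TPM in the OFT, with 4.93 TPM in atria, 6.16 TPM in ventricles and 51.8 TPM in the null, and was called higher in both valve regions over the chambers and lower in the OFT over the AVC (exact p = 0.0218). Its call lower in the null (exact p = 0.0477) was lost with TMM normalization (exact p = 0.0961). *Alcam*, a cell adhesion molecule, had 74.6, 120.2, 12.2, 30.1 and 107.7 TPM in the same order and was called higher in both valve regions, in the AVC not with TMM normalization (exact p = 0.225). *Ezr*, which links membranes to actin, had 80.3, 55.1, 146, 222 and 68.9 TPM and was called lower in the OFT, and with TMM normalization also in the AVC (exact p = 0.00452).

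In the null 2 of 16 mesothelial genes were called higher (*Bnc1* and *C3*) and 2 lower (*Itga4* and *Msln*), against 11.9% and 12.7% of all genes. Their median log2 ratio was -0.45 against -0.16 for all genes. TMM normalization gave 4 higher and 1 lower, against 14.9% and 9.36% of all genes. Between the OFT and the AVC 1 of 15 was called higher, *Clu*, at 31.6 TPM in the AVC but 103 TPM in the OFT, and 3 were lower. Over all genes 5.22% were called higher in the OFT and 7.35% lower. *Clu*, a secreted chaperone, was also the only one of 14 called higher in the ventricles over the atria, at 15.6 and 3.64 TPM, with 2 lower. Over all genes 11.1% were called higher in the ventricles and 9.03% lower.

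Retinoic acid genes were counted because *Aldh1a2* makes their ligand. Of 15 genes 14 were listed in some library, and 7 of 11 were called higher and 1 lower in the AVC over the chambers, with 6 of 11 higher and 3 lower in the OFT. Over all genes 43.4% were called higher and 8.12% lower in the AVC, and 40.6% and 8.88% in the OFT. TMM normalization gave 4 higher and 1 lower, and 4 higher and 4 lower, where all genes gave shares of 25.6% higher and 17.5% lower with the AVC, and 26.2% and 17.7% with the OFT. Of the genes called higher without TMM normalization, some had no tag listed in the chambers. These were *Crabp2*, *Rarg* and *Rdh10* in the AVC and *Crabp2*, *Cyp26b1* and *Rarg* in the OFT. *Aldh1a3*, *Rbp4* and *Stra6*, called lower in the OFT, had no tag listed there. In the null over the AVC 4 of 14 were higher and 1 lower, against 11.9% and 12.7% of all genes. With TMM normalization these were 4 and 0, against 14.9% and 9.36% of all genes. Of the 4 higher genes, *Aldh1a1*, *Aldh1a3* and *Cyp26b1* had no tag listed in the AVC. They had 4.70, 0.771 and 2.08 TPM in the null. The smallest level that could be listed in the AVC was 0.988 TPM, which is above that of *Aldh1a3*. In the OFT over the AVC 2 of 11 were higher and 4 lower, against 5.22% and 7.35% of all genes. The 4 lower genes, *Dhrs3*, *Rbp4*, *Rdh10* and *Stra6*, had 2.47, 3.62, 1.32 and 4.44 TPM in the AVC. None had a tag listed in the OFT, where the smallest level that could be listed was 1.14 TPM. The medians of the log2 ratio were 2.12, 1.97, 0.56 and -0.42 in the order of these comparisons, against 1.23, 1.07, -0.16 and -0.10 over all genes. In the ventricles over the atria 1 of 8 was higher and 4 lower, against 11.1% and 9.03% of all genes. Each of these 5 had no tag listed in 1 of the chambers.

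Single genes called alone in a direction were near the listing limit. *Aldh1a3*, a further enzyme of retinoic acid synthesis, was called lower in the AVC with 1.93 TPM in the atria and no tag listed in the other wild-type libraries. *Rbp4*, the plasma carrier of retinol, was called lower in the null with 0.925 TPM against 3.62 in the AVC (exact p = 0.0428), a call lost with TMM normalization (exact p = 0.0783). *Dhrs3*, a retinaldehyde reductase, was called higher in the ventricles with 1.89 TPM and none listed in the atria. The 4 most abundant genes of the list were the retinoic acid-binding protein *Crabp1* and the receptors *Rara*, *Rarb* and *Rxra*. *Crabp1* had 8.89 TPM in the AVC and 38.9 TPM in the OFT, with 3.64 TPM in atria, no tag listed in ventricles and 19.8 TPM in the null, and was called higher in both valve regions, in the AVC not with TMM normalization (exact p = 0.149). *Rara* had 21.6, 15.2, 2.79, 2.37 and 25.3 TPM in the same order, called higher in both valve regions, and *Rarb* had 17.4, 20.5, 11.4, 9.71 and 12.0 TPM without a call. *Rxra*, the partner of these receptors, had 12.5, 12.0, 2.57, 3.55 and 15 TPM and was called higher in both valve regions, in neither with TMM normalization (exact p = 0.181 and 0.172).

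Of 17 other keratin, uroplakin and epithelial junction genes, 9 were listed. In the AVC over the chambers 1 of 7 was called higher and none lower, in the OFT over the chambers 3 higher and 1 lower, and in the null over the AVC 2 of 9 higher and 1 lower. The shares of all genes called higher were 43.4, 40.6 and 11.9%, and those called lower 8.12, 8.88 and 12.7%. With TMM normalization these became 1 higher and 3 lower, 2 higher and 1 lower, and 3 higher and 1 lower. The shares of all genes were then 25.6, 26.2 and 14.9% higher, and 17.5, 17.7 and 9.36% lower. Without TMM normalization the 2 genes higher in the null were *Cldn3* at 0.925 TPM and *Upk3a* at 1.08 TPM. Neither had a tag listed in the AVC, where the smallest level that could be listed was 0.988 TPM. Neither the OFT over the AVC nor the ventricles over the atria gave a call. With TMM normalization each had 1 call, higher in the OFT over the AVC and lower in the ventricles over the atria. Over all genes 5.22% and 11.1% were called higher in these comparisons without TMM normalization, and 7.35% and 9.03% lower. With it the shares were 6.39% and 9.16% higher, and 6.24% and 10.04% lower. *Pkp2*, a desmosomal plaque protein also of heart muscle, was the most abundant with 596 TPM in the AVC and 1243 TPM in the OFT, and with 278 TPM in atria, 399 TPM in ventricles and 419 TPM in the null. *Dsp*, desmoplakin, had 39.5, 65.9, 33.2, 67.0 and 74.8 TPM. *Jup*, plakoglobin, had 30.9, 33.2, 47.6, 40.5 and 81.3 TPM. *Cdh3*, P-cadherin, had 9.55, 26.2, 2.79, 5.21 and 3.70 TPM and was called higher in the OFT over the chambers with *Pkp2*, whose call was lost with TMM normalization (exact p = 0.154). *Upk1a*, a further uroplakin, was called higher in both valve regions over the chambers and lower in the null, with 1.32 TPM in the AVC, 1.90 TPM in the OFT and no tag listed elsewhere. *Krt7*, a type II keratin, was called lower in the OFT, at 2.66 TPM against 17.4 TPM in atria and 7.10 TPM in ventricles.

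*Krt8* and *Krt18* are also made by gut epithelium and by liver cells, and 2 marker lists of these tissues were read beside them. Of 8 foregut endoderm genes at most 2 were listed in any library, with the highest sum, 15.6 TPM in the OFT, from *Sox17* alone, which endothelial cells also express, and *Foxa1* was at 0 throughout. Of 7 hepatoblast genes 6 were listed in the atria, summing to 52.9 TPM, against 11 TPM in the AVC and 6.45 TPM in the OFT, with none listed in ventricles and 4.55 TPM in the null. *Krt18* also had its highest level in the atria, and the part of hepatoblast RNA in it was not tested.

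The profile over the 5 libraries of each gene was set against 10207 genes with at least 100 tags by the Euclidean distance of log2(TPM + 1), centred on each gene's own mean. It is a description, without a test, over 5 libraries. None of the 8 was among the 3 nearest genes of another. The closest other member was ranked from 43 (*Aldh1a2* for *Tcf21*) to 4158 (*Wt1* for *Krt8*), and the smallest distance between any pair was 1.02, for *Upk1b* and *Upk3b*.

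The 3 nearest genes were *Robo2*, *Lman2l* and *Kif5b* for *Wt1*, at distances of 0.20, 0.26 and 0.36, and *Tdo2*, *Dhrs7* and *Hfe2* for *Tcf21*, at 0.56, 0.70 and 0.78. *Aldh1a2* was nearest to *Cgnl1*, *Ptpn12* and *Ect2*, at 0.19, 0.23 and 0.27. *Upk1b* was nearest to *Zfp429*, *Ssh1* and *Dsc2*, at 0.20, 0.22 and 0.22, and *Upk3b* to *Pknox1*, *Zcchc18* and *Slc43a1*, at 0.32, 0.33 and 0.35. For the keratins these were *Pyroxd1*, *Tagln* and *Erg28* for *Krt8*, at 0.40, 0.44 and 0.47, *Srbd1*, *Atg4c* and *Mylpf* for *Krt18*, at 0.55, 0.57 and 0.58, and *Afap1l1*, *Tmx2* and *Exog* for *Krt19*, at 0.14, 0.19 and 0.20.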

How the data were processed

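The deposited files hold raw counts of reads per tag type, without normalization. The authors kept the first 21 bases of each read and listed tag types with more than 5 tags, and the files hold the 17 bases after CATG. The submitters' processing notes name the build mm9, but coordinates here come from a match to GENCODE M21 on GRCm38. Tags were looked up in the virtual tags of the 33363 transcripts linked to RefSeq, and sense tags of 1 of the 24303 genes were summed (70.7 to 74.5% of tags). Without a genome sequence, matches outside these transcripts were not searched. TPM are tags per 1000000 listed tags.

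Libraries were compared with edgeR 4.0.16 (two-sided exact test, dispersion 0.12 as in the study's methods) in R 4.3.3, without replicates or covariates, and DESeq2 1.42.0 served as an alternative. p-values reflect counting and the assumed dispersion. Intervals of levels are exact Poisson. Tables were made with Python 3.11.15, pandas 2.3.3 and scipy 1.17.1. Tested on simulated data for the AVC over the chambers with 12503 genes, 72.0% of 200 genes changed 4-fold were recovered and 4.53% of unchanged genes were called. The simulated counts had the same dispersion of 0.12 as the test and no shift between libraries. They check the running of the test and do not measure the error rate of the calls reported here.

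The genes and lists were chosen with earlier results of these data known. Named are all 8 genes, the 4 most abundant genes of the mesothelial, retinoic acid and epithelial lists and those called alone in a direction, and the 3 nearest profiles. Some further called genes are named, such as those with no tag listed in a compared library. 18 alternatives were planned and 1 was added. 1 gene of the retinoic acid list is not reported here, and counts over that list leave it out.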

Additional observations from a re-analysis of the deposited data

Results flagged for a closer look

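The ratios of the valve regions to the chambers differed between the AVC and the OFT for *Tcf21*, with a log2 ratio of OFT over AVC of -2.48, and for *Krt8*, with 1.59. Both are the calls between these libraries given above (exact p = 0.00139 and 0.0313) and were picked out by them. They are not a separate test, and the *Krt8* call was lost with Benjamini-Hochberg adjustment. Neither comparison has replicates.

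Antisense tags of these genes were outside the measurement above. They reached 10 tags for *Wt1* in the OFT, 28 for *Tcf21* in the AVC, 36 for *Aldh1a2* in the atria and 13 for *Krt19* in the OFT, and in the *Twist1* null AVC 49 for *Upk3b*, 20 for *Krt8* and 10 for *Krt18*. No antisense tag of *Upk1b* was listed. Other places of these tags in the genome were not checked.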

How the results depend on the processing

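No paired analysis was possible because each condition had 1 library. Calls among the 8 genes moved by more than 1.5 times as follows. In the AVC over the chambers 3 calls became 5 with TMM normalization, with DESeq2 size factors, without T tags, and without T tags under TMM normalization (an alternative chosen after seeing the data), and 1 at a dispersion of 0.4. Without T tags alone the 5 were 3 higher and 2 lower, and otherwise 1 higher and 4 lower. All genes gave 25.6% higher and 17.5% lower with TMM normalization, and 25.2 and 17.9% with DESeq2 size factors. They gave 49.9 and 7.00% without T tags, 29.5 and 16.5% with TMM normalization added, and 20.3 and 2.70% at 0.4. In the OFT over the chambers 5 became 3 at a dispersion of 0.4, 2 higher and 1 lower, where all genes gave 19.4 and 3.35%. In the null over the AVC 1 became 0 at a dispersion of 0.4 and with Benjamini-Hochberg adjustment, 2 with all transcripts, and 3 without T tags, with or without TMM normalization. The 3 were all lower without T tags, and 1 higher and 2 lower with TMM normalization added. All genes gave 3.90% higher and 2.36% lower at 0.4, 5.06 and 3.93% with adjustment, and 13.0 and 13.5% with all transcripts. They gave 8.49 and 19.2% without T tags, and 14.2 and 10.7% with TMM normalization added. In the OFT over the AVC 2 became 5 at a dispersion of 0.05, 0 at 0.4 and 1 with adjustment. The 5 were 2 higher and 3 lower, and the 1 was lower. All genes gave 8.51% higher and 12.0% lower at 0.05, 2.46 and 3.01% at 0.4, and 1.24 and 1.88% with adjustment. In the ventricles over the atria 1 became 0 at a dispersion of 0.4, with adjustment, with tag types of more than 10 tags, without T tags (with or without TMM normalization), with at least 50 tags and with 5 tags for a missing type. All genes gave 4.03% higher and 4.28% lower at 0.4, 3.47 and 2.80% with adjustment, and 12.8 and 10.1% with more than 10 tags. They gave 11.4 and 10.8% without T tags, and 10.1 and 11.5% with TMM normalization added. With at least 50 tags they gave 4.98 and 1.71%, and with 5 tags for a missing type 4.03 and 1.44%.

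Of the log2 ratios of single genes under the alternatives, 598 kept direction and side of the threshold, 31 passed it, 17 lost it and 25 changed sign. *Aldh1a2* without T tags, and with TMM normalization added, had 5.91 and 5.37 in the AVC over the chambers, 6.76 and 6.24 in the OFT over the chambers, -6.25 and -5.88 in the null over the AVC (all fitted against libraries with no such tag, so no bounds), and 0.93 and 1.02 in the OFT over the AVC. It had -0.047 in the null with 5 tags for a missing type, and -0.24, -0.23 and -0.20 in the ventricles over the atria with TMM normalization, DESeq2 size factors and totals without haemoglobin. *Upk1b* in the AVC over the chambers had -0.84, -0.87 and -0.091 under the same scalings, -0.11 against the atria alone, -0.14 with the last NlaIII site, -0.032 without T tags, -1.13 with TMM normalization added and -0.0092 with 5 tags for a missing type. *Upk3b* without T tags, and with TMM normalization added, had -0.86 and -0.28 in the null and 1.85 and 1.94 in the OFT over the AVC. *Krt19* had 0.051 in the OFT over the atria alone. Beyond what each alternative removes, the cause was not tested.

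With all transcripts, *Krt18* kept only its null-library tag, so its ratios to the chambers could not be fitted. *Upk3b* has no tag at the last site, and *Wt1* no listed tag without T outside the AVC, so that it was fitted at -7.12 and -6.75 (with TMM normalization) in the null over the AVC and at -6.38 and -6.33 in the OFT over the AVC, all past the threshold and none a bound. Tag types of 5 or fewer tags are not listed, which limits *Wt1* in the chambers and the *Aldh1a2* exon 11 tag.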

Other observations

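*Cgnl1*, the gene of 10207 with the profile nearest to that of *Aldh1a2*, starts 330266 bases from the end of *Aldh1a2* on chromosome 9 (GRCm38). It was the only 1 of the 24 nearest genes on the same chromosome as its partner, and it was picked out after its values were seen.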
